A study of Homo sapiens with 8 samples.

Results

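The 42 genes described here code for the cytosolic translation initiation and elongation factors and for a few proteins that act beside them, among them the poly(A)-binding protein gene PABPC1, the inhibitor gene EIF4EBP1 and TPT1. They were picked by gene symbol, and each matched a row of the expression tables, 42 of 60592 rows in all. RNA was sequenced from WSU-DLCL2, an established cell line of human diffuse large B-cell lymphoma. The groups were FDX1-overexpressing (FDX1-OE) cells given 15 nM elesclomol (ES), control cells given the same ES dose, FDX1-OE cells given the solvent DMSO, and control cells given DMSO, all for 48 h. The labels give the control genotype as WT and name no vector, promoter or clone for the overexpression. Each group held 2 libraries, 8 in all. ES brings copper ions across the cell membrane, and FDX1 is a mitochondrial ferredoxin, an electron carrier that the action of ES is known to need. Nothing in the labels tells separate cultures from repeat libraries of a culture, so the p-values below rest on a spread that may be technical.

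Translation of a cytosolic mRNA starts when a small ribosomal subunit, carrying the initiator tRNA on eIF2 and held by the eIF3 complex, is brought to the capped end of the mRNA by the eIF4 proteins and moves to a start codon. After the large subunit joins, eEF1A delivers each aminoacyl-tRNA, the eEF1B exchange factors recharge eEF1A with GTP, and eEF2 moves the ribosome along. Growing lymphoma cells make these factors in large amounts, and the mRNAs of the elongation factors and of ribosomal proteins are known as TOP mRNAs, which begin with a C followed by a run of C and T and whose translation depends on mTOR signalling.

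That start tract is a feature of the members that their choice did not use, so the DNA around their annotated starts is shown here. The sequences come from RefSeq on GRCh38.p14, each covers 30 bases on the strand of the mRNA, 10 before the annotated start and 20 from it, and the start is the annotated one and was not measured. Of the 42 genes 33 had an entry. The search was for a C at the start followed by at least 4 bases that are C or T, on the strand of the mRNA only, and it was met by 11 of the 33 genes (33.3%), against 5.14% of all genes with an entry and 74.6% of 63 ribosomal protein genes. Among abundant genes, those whose mean log2(FPKM + 1) over the 8 libraries was at least 5, the share was 12.4%. In the 11 windows with a tract the capitals mark it:
EEF1A1, chr6:73521013-73521042, minus strand: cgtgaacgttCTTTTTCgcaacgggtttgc
EEF2, chr19:3985444-3985473, minus strand: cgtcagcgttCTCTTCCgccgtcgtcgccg
EEF1B2, chr2:206159885-206159914, plus strand: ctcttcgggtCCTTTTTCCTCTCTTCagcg
TPT1, chr13:45341164-45341193, minus strand: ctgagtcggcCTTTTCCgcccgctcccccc
EIF3K, chr19:38619178-38619207, plus strand: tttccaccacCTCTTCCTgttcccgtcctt
EIF3M, chr11:32583821-32583850, plus strand: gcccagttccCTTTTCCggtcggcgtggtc
EIF3D, chr22:36529147-36529176, minus strand: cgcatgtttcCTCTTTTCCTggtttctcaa
EIF3F, chr11:7987327-7987356, plus strand: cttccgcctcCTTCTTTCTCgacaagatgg
EIF4B, chr12:53006446-53006475, plus strand: tcatccgggtCTTTTgcgttctctttccct
EIF4A2, chr3:186783567-186783596, plus strand: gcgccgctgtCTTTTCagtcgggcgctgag
EIF2S3, chrX:24054946-24054975, plus strand: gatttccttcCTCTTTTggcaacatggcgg

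The next 5 windows, without a tract, belong to genes described below, and there the capital marks the first transcribed base. EIF4G2 and EIF6 have more than 1 annotated start, of which 1 each is shown, and the other lacks a tract too. EEF1B2 also has an upstream start without a tract.
EIF4G2, chr11:10808907-10808936, minus strand: acgccttagcGccagcagtgagtcggagct
EIF6, chr20:35284698-35284727, minus strand: tggtaagctgGtgtgaggggaacctgggag
EIF1, chr17:41688875-41688904, plus strand: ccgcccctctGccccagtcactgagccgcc
EIF3B, chr7:2354817-2354846, plus strand: tcgcacgcacAtggctgggctgtagccgtc
EEF1G, chr11:62573872-62573901, minus strand: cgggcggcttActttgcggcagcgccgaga

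Expression is given in FPKM, fragments per length of transcript and per library total, as the submitters deposited it, so levels of different genes are compared per length. FDX1 stood at 60.7 and 59.4 FPKM in the FDX1-OE ES libraries, 9.88 and 10.0 FPKM in control ES, 59.8 and 56.0 FPKM in FDX1-OE DMSO and 10.8 and 10.4 FPKM in control DMSO, as the labels require. All 8 B cell markers reached at least 1 FPKM in every library, and 0 of 8 T and NK cell markers did, with CD3D, CD3G and CD2 at 0. These summed to 0.956 to 1.03 FPKM in FDX1-OE ES and to 0.048 to 0.227 FPKM in the other groups, and the 7 epithelial and fibroblast markers to 0.734 to 0.884 FPKM and 0.112 to 0.367 FPKM. Of the 6 myeloid markers AIF1 reached 1 FPKM in all 8 libraries and CD33 in 1, at 1.34 FPKM, and the 6 summed to 4.59 to 5.85 FPKM in FDX1-OE ES, 3.97 to 4.67 FPKM in control ES, 1.74 to 2.35 FPKM in FDX1-OE DMSO and 1.62 to 1.73 FPKM in control DMSO. Both FDX1-OE ES libraries stood apart. Their FPKM values summed to 408018 and 403024, against 445716 to 451027 in the other 6, and mitochondrially encoded mRNAs took 14.7% and 11.9% of the total, against 16.9% to 17.6%. The median absolute log2 difference between the libraries of a group was 0.16 over all genes in FDX1-OE ES, 0.09 in control ES and 0.07 and 0.08 in the FDX1-OE and control DMSO groups. Over the 42 translation factor genes it was 0.17, 0.06, 0.04 and 0.04 in the same groups. The part of these differences in the results below was not tested. In bulk samples such as these, fewer cells of a type and less RNA per cell cannot be told apart.

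In unstimulated cells the translation factors differed widely in level. In control DMSO (means of 2 libraries) the highest was EEF1A1 with 2565 FPKM, followed by EEF2 with 1449 FPKM, PABPC1 with 1227 FPKM, EEF1G with 885 FPKM and EIF5A with 629 FPKM. The lowest were EIF3C with 8.99 FPKM, EIF2B2 with 11.98 FPKM and the cap-binding protein gene EIF4E with 16.0 FPKM. Every one of the 42 genes passed the filter of at least 1 FPKM in at least 2 libraries, which left 12063 genes to test. By the annotation 11 of them share exon bases with another gene on the same strand and 23 with a gene on the opposite strand, and whether strand was used in counting is not given in the sources used here. Together the 42 genes took 2.19% and 2.14% of all FPKM in FDX1-OE ES, 2.39% and 2.32% in control ES, 2.63% and 2.64% in FDX1-OE DMSO and 2.59% and 2.66% in control DMSO. The share was lowest in the FDX1-OE ES libraries and next lowest in control ES, and neither overlapped with its DMSO group.

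A gene is said to have risen or fallen where limma, fitted to log2(FPKM + 1) over all 8 libraries, gave an adjusted p below 0.05 after Benjamini-Hochberg adjustment over all 12063 genes, and fold changes are on that scale. In FDX1-OE ES cells against control ES cells 1 of the 42 genes, EIF4G2, rose and 14 fell (33.3%). The split was 5 higher and 12 lower under quantile normalisation, 4 and 7 with equal FPKM totals and 1 and 28 under median-ratio scaling. Of all genes tested 31.1% rose and 10.4% fell, and of the 2333 abundant genes 16.0% rose and 30.1% fell, so the share of translation factors that fell lay near that of abundant genes. Among the 34 translation factors that were themselves abundant, 14 fell (41.2%). The median log2 fold change was -0.17 over the 42 genes, 0.16 over all genes and -0.07 over abundant genes. Of 79 ribosomal protein genes 71 fell and 0 rose, with a median of -0.41.

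With ES in FDX1-OE cells, set against DMSO in the same cells, 4 of the 42 genes rose (EIF1, EIF4EBP1, EIF4G2 and TPT1) and 22 fell (52.4%). The background in that comparison was 47.1% higher and 13.7% lower over all genes, and 26.9% higher and 35.6% lower over abundant genes. Median-ratio scaling gave 1 higher and 37 lower, and quantile normalisation 6 and 19. The median was -0.26 over the 42 genes, 0.25 over all genes and -0.05 over abundant genes. The comparisons share the FDX1-OE ES libraries, so their values are given side by side and not as independent evidence. Set against the median of all genes, the 42 genes lay 0.33 lower in FDX1-OE ES against control ES (-0.33) and 0.51 lower in FDX1-OE ES against FDX1-OE DMSO (-0.51). Abundant genes, which include 34 of the 42, had medians of -0.07 and -0.05 there, closer to those of the 42 genes.

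In control cells given ES, against control DMSO, EIF1 rose and EIF3B, EIF4G1 and EEF1A1 fell, with a background of 6.74% higher and 1.00% lower over all genes and 4.93% higher and 2.96% lower over abundant genes. Median-ratio scaling gave 0 higher and 9 lower, quantile normalisation 1 and 0, array weights 3 and 12, and a fit of only the groups compared 2 and 10. Leaving out either FDX1-OE ES library gave 3 higher and 13 lower, leaving out any 1 control library or dropping the filter gave 0 and 0, and leaving out either FDX1-OE DMSO library gave 0 and 1. The median of the 42 genes was -0.08, against 0.09 over all genes. None was called with overexpression alone. In FDX1-OE DMSO against control DMSO limma called 0 of the 42 genes, with 1 at an unadjusted p below 0.05 (EIF1, log2 fold change -0.16, adjusted p = 0.999), and log2 fold changes ran from -0.16 to 0.25 with a median of -0.00. Of all genes tested 0.00829% rose there, which was FDX1 itself, and 0.00% fell.

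**Figure D1:**
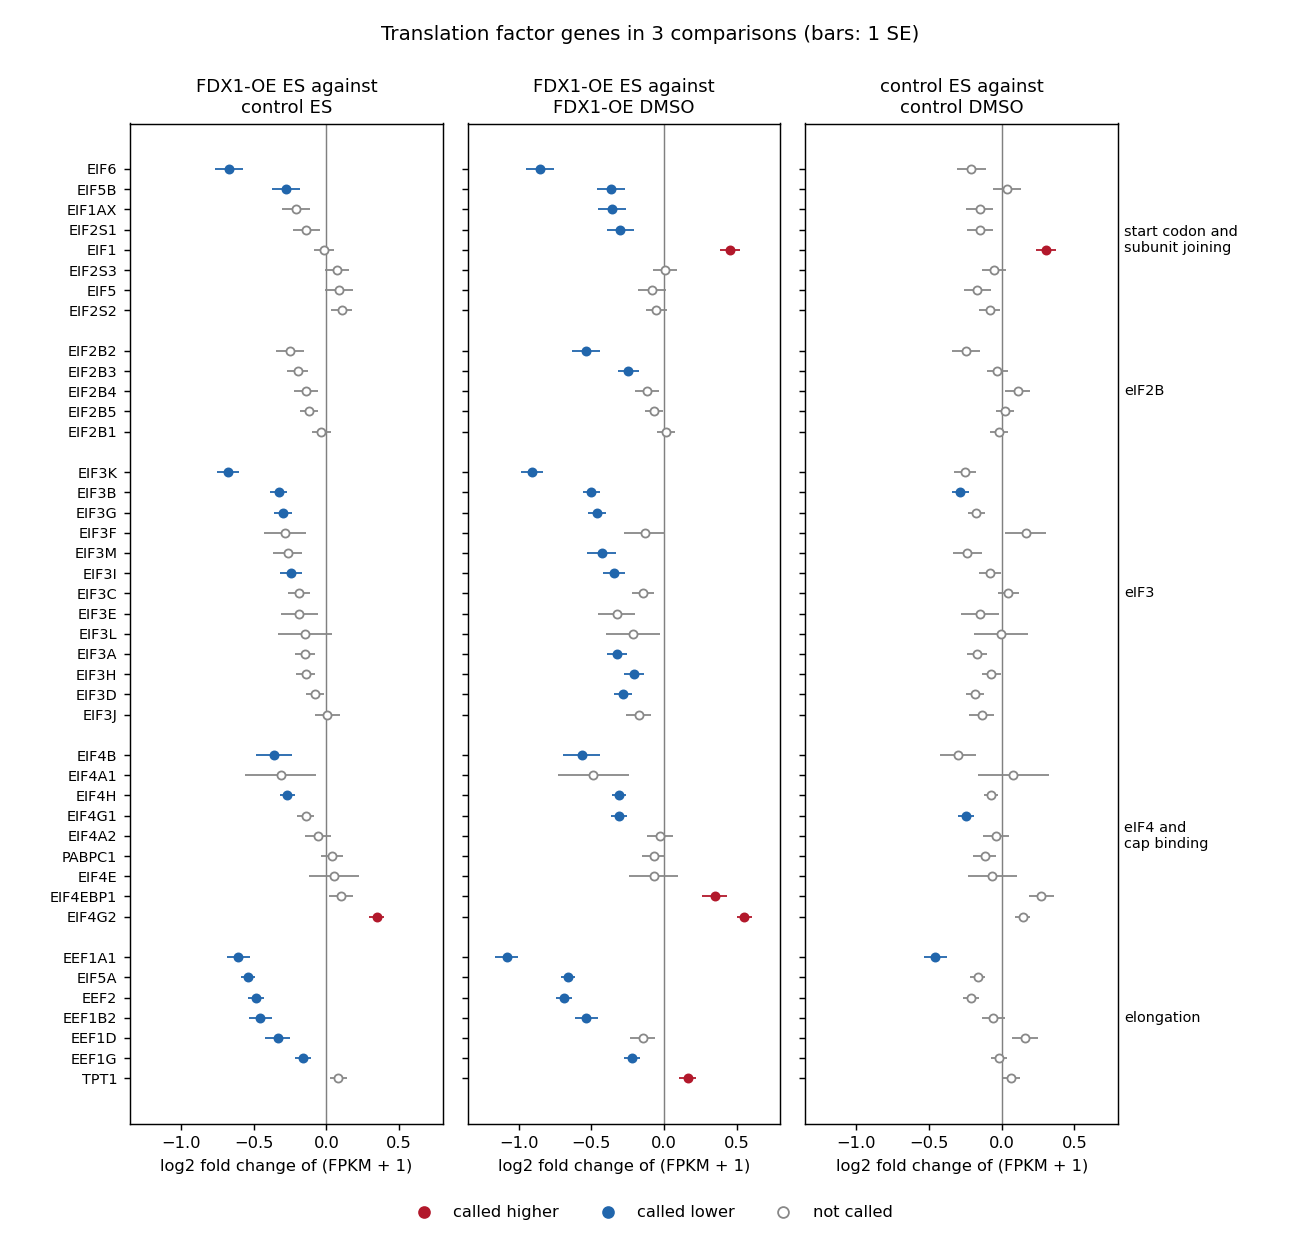
Log2 fold change of (FPKM + 1) of the 42 genes on the horizontal axis, with bars of 1 SE, in FDX1-OE ES against control ES (left), FDX1-OE ES against FDX1-OE DMSO (middle) and control ES against control DMSO (right). Rows are grouped by role and filled points passed the test, 1 higher and 14 lower on the left, 4 higher and 22 lower in the middle, and 1 higher and 3 lower on the right.

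The elongation factors had the lowest median of the 5 role groups in both comparisons of FDX1-OE ES. In FDX1-OE ES against control ES 6 of 7 fell (85.7%, against 30.1% of abundant genes) and 0 rose. The median log2 fold change was -0.45. In FDX1-OE ES against FDX1-OE DMSO 5 of 7 fell (71.4%, against 35.6% of abundant genes) and TPT1 rose. The median was -0.53. Against control ES the counts were 2 higher and 3 lower under quantile normalisation. Their summed level was 4223 and 4225 FPKM in FDX1-OE ES, 5693 and 5508 FPKM in control ES, 6503 and 6667 FPKM in FDX1-OE DMSO and 6501 and 6581 FPKM in control DMSO. The ES libraries of each genotype lay below their DMSO libraries, and the FDX1-OE ES libraries were the lowest.

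EEF1A1, which carries aminoacyl-tRNAs to the ribosome, stood at 1318 and 1147 FPKM in FDX1-OE ES, 1948 and 1795 FPKM in control ES, 2569 and 2641 FPKM in FDX1-OE DMSO and 2504 and 2625 FPKM in control DMSO. Its groups did not overlap in any of the comparisons with ES. The log2 fold change was -0.60 (SE 0.08, adjusted p = 0.0013) in FDX1-OE ES against control ES, -1.08 (SE 0.08, adjusted p = 3.36e-05) in FDX1-OE ES against FDX1-OE DMSO and -0.46 (SE 0.08, adjusted p = 0.0193) in control ES against control DMSO. It was the largest fall of the 42 genes in both comparisons with DMSO. Under quantile normalisation the change in control cells was -0.14 (adjusted p = 0.207), and without a filter it was not called (adjusted p = 0.138). The fall in control cells missed the threshold without any 1 of the 4 control libraries, at adjusted p between 0.0645 and 0.157. EEF1A1 has 39 pseudogene rows in the tables, which can share its reads. These summed to 33.8 and 31.4 FPKM in FDX1-OE ES, 55.6 and 51.2 FPKM in control ES, 67.9 and 71.5 FPKM in FDX1-OE DMSO and 70.7 and 68.5 FPKM in control DMSO, small beside the gene and lowest in the same group.

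EEF2, the translocation factor, had 878 and 918 FPKM in FDX1-OE ES, 1264 and 1244 FPKM in control ES, 1421 and 1470 FPKM in FDX1-OE DMSO and 1458 and 1440 FPKM in control DMSO. It fell by 0.48 on the log2 scale (SE 0.05, adjusted p = 0.000739) in FDX1-OE ES against control ES, and by 0.69 (SE 0.05, adjusted p = 4.65e-05) against FDX1-OE DMSO. Under quantile normalisation the difference from control ES was -0.13 (adjusted p = 0.0696) and was lost. In control ES against control DMSO it was -0.21 (adjusted p = 0.0571), although the groups did not overlap.

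EIF5A, the hypusine-bearing protein that helps ribosomes through difficult peptide bonds, had 388 and 384 FPKM in FDX1-OE ES, 565 and 556 FPKM in control ES, 608 and 614 FPKM in FDX1-OE DMSO and 628 and 630.2 FPKM in control DMSO. The libraries of each group lay close together and no ES group overlapped with the others. Its log2 fold change was -0.54 (SE 0.05, adjusted p = 0.000342) in FDX1-OE ES against control ES and -0.66 (SE 0.05, adjusted p = 3.55e-05) against FDX1-OE DMSO.

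The exchange factor of eEF1A is built from the products of EEF1B2, EEF1D and EEF1G. EEF1B2 had 253 and 292 FPKM in FDX1-OE ES, 376 and 370.0 FPKM in control ES, 381 and 408 FPKM in FDX1-OE DMSO and 405 and 372 FPKM in control DMSO. The FDX1-OE ES libraries were low, and the other 6 lay between 370.0 and 408 FPKM. It fell by 0.45 (SE 0.08, adjusted p = 0.00365) in FDX1-OE ES against control ES and by 0.53 (SE 0.08, adjusted p = 0.000708) against FDX1-OE DMSO. EEF1D changed by -0.34 (adjusted p = 0.0167) in FDX1-OE ES against control ES, a call lost without control ES replicate 2 (-0.28). Its value was -0.21 without FDX1-OE ES replicate 1. That call of EEF1D was also lost with equal FPKM totals, without a filter, in a fit of only the groups compared and under quantile normalisation (adjusted p between 0.0644 and 0.228). EEF1G, the most abundant subunit, changed least, by -0.16 (SE 0.06, adjusted p = 0.047), a call lost without any 1 of the 6 libraries outside FDX1-OE ES (adjusted p between 0.0888 and 0.161). Under quantile normalisation EEF1G turned its direction and passed the test, at 0.19 (adjusted p = 0.0285) against control ES and 0.16 (adjusted p = 0.0345) against FDX1-OE DMSO.

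TPT1, which codes for the translationally controlled tumour protein, a partner of eEF1A, went the other way. It had 480.5 and 501 FPKM in FDX1-OE ES, 472 and 455 FPKM in control ES, 438 and 439 FPKM in FDX1-OE DMSO and 454 and 430 FPKM in control DMSO. Its highest libraries were those of FDX1-OE ES. Its log2 fold change was 0.08 (adjusted p = 0.265) in FDX1-OE ES against control ES. There it passed the test above 0 under quantile normalisation (0.44, adjusted p = 0.00104) and with equal FPKM totals (0.22, adjusted p = 0.0113). Against FDX1-OE DMSO it rose by 0.16 (SE 0.06, adjusted p = 0.0352). The rise missed the threshold with array weights, without a filter and in a fit of only the groups compared (adjusted p between 0.0704 and 0.116). That rise was lost without any 1 of the 6 libraries outside FDX1-OE ES (adjusted p between 0.0567 and 0.136), and it had the opposite sign, -0.13, under median-ratio scaling.

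**Figure D2:**
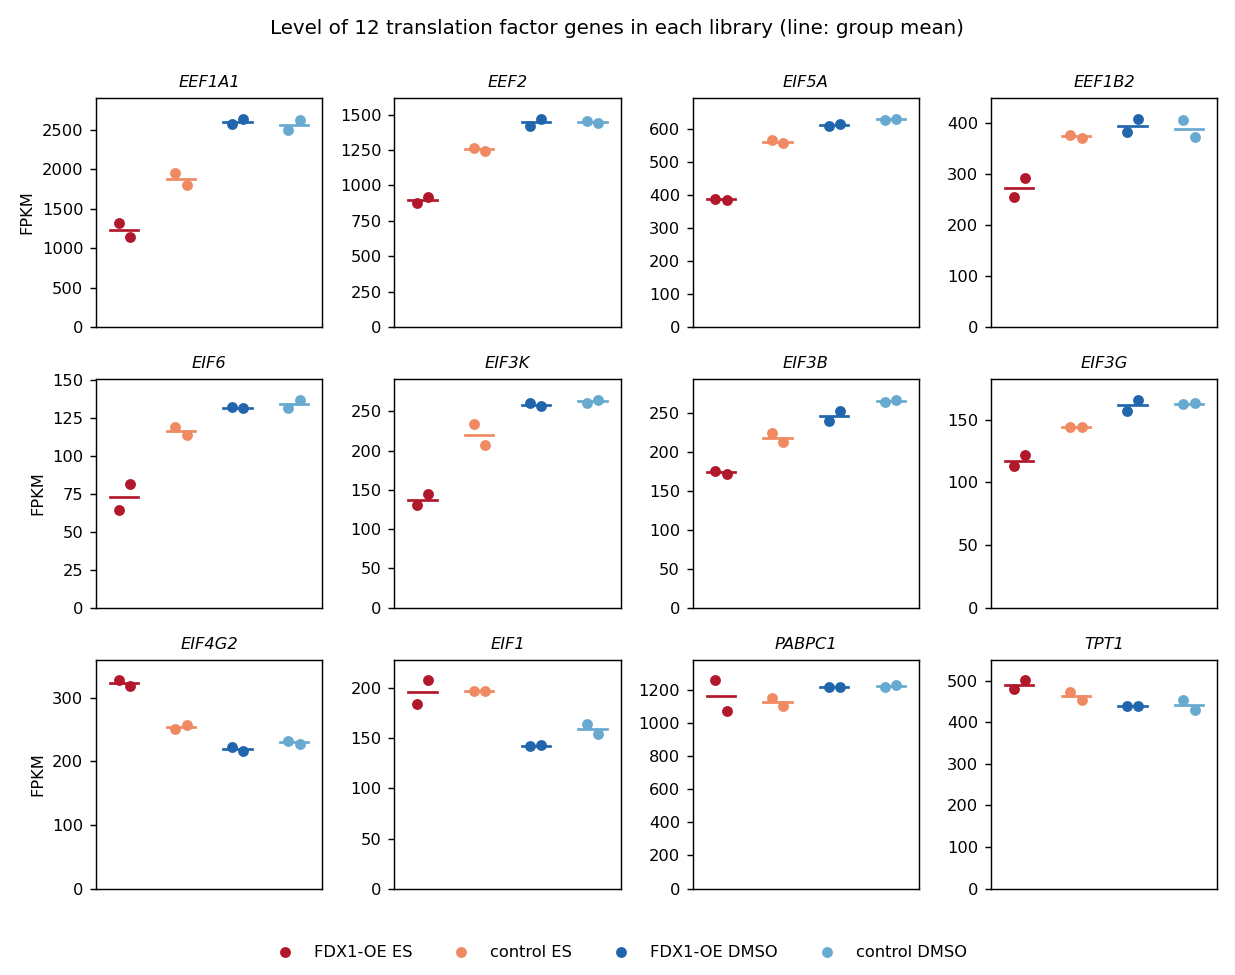
Level in FPKM on the vertical axis of 12 translation factor genes in each of the 8 libraries, drawn as points with a line at the group mean, with FDX1-OE ES, control ES, FDX1-OE DMSO and control DMSO side by side. EEF1A1, EEF2, EIF5A, EEF1B2, EIF6, EIF3K, EIF3B and EIF3G were lowest in FDX1-OE ES, and EIF4G2 and TPT1 were highest there. EIF1 was high in both ES groups. For PABPC1, FDX1-OE ES overlapped with every other group, and control ES lay below both DMSO groups.

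Among the 8 factors of start codon selection, initiator tRNA delivery and subunit joining, 2 fell and 0 rose in FDX1-OE ES against control ES. Their median was -0.08. Against FDX1-OE DMSO 4 fell and 1 rose, with a median of -0.19. Abundant genes gave 30.1% lower and 16.0% higher against control ES, and 35.6% and 26.9% against FDX1-OE DMSO. All genes tested gave 10.4% lower and 31.1% higher, and 13.7% and 47.1%. Falls against control ES were thus no more frequent in this group than among abundant genes. EIF6, which keeps the large subunit from joining too early and takes part in its making, had 64.6 and 81.6 FPKM in FDX1-OE ES, 119 and 114 FPKM in control ES, 132 and 132 FPKM in FDX1-OE DMSO and 132 and 137 FPKM in control DMSO. The FDX1-OE ES libraries differed from each other and still lay far below all 6 others. It fell by 0.67 (SE 0.10, adjusted p = 0.00189) against control ES and by 0.85 (SE 0.10, adjusted p = 0.00021) against FDX1-OE DMSO. EIF5B, the GTPase that joins the subunits, had 45.1 and 35.8 FPKM in FDX1-OE ES, 49.2 and 48.7 FPKM in control ES, 51.7 and 52.3 FPKM in FDX1-OE DMSO and 48.0 and 47.4 FPKM in control DMSO. Its FDX1-OE ES libraries lay further apart than the group means of FDX1-OE ES and control ES. It changed by -0.28 (SE 0.10, adjusted p = 0.0488) against control ES, and the value was -0.12 (adjusted p = 0.0875) without FDX1-OE ES replicate 2 and -0.44 (adjusted p = 0.000954) without FDX1-OE ES replicate 1. The call was lost without any 1 of 7 libraries, FDX1-OE ES replicate 1 being the exception. It was also lost with array weights, equal FPKM totals, no filter or a pseudocount of 0.1. The same held for quantile normalisation and a fit of only the groups compared (adjusted p between 0.0510 and 0.229 over these settings).

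The subunits of eIF2, the carrier of the initiator tRNA, did not move together. EIF2S2 had 62.2 and 54.0 FPKM in FDX1-OE ES, 53.7 and 53.8 FPKM in control ES, 60.4 and 59.9 FPKM in FDX1-OE DMSO and 56.4 and 57.7 FPKM in control DMSO, a log2 fold change of 0.11 (adjusted p = 0.27) in FDX1-OE ES against control ES, which passed the test without FDX1-OE ES replicate 2 (0.21, adjusted p = 0.0132). EIF2S3 had 94.2 and 78.7 FPKM in FDX1-OE ES, 81.2 and 82.5 FPKM in control ES, 87.9 and 83.7 FPKM in FDX1-OE DMSO and 85.5 and 84.4 FPKM in control DMSO. Its FDX1-OE ES libraries spanned all 6 others, and its log2 fold change was 0.07 (adjusted p = 0.51) against control ES. Against FDX1-OE DMSO it was 0.01, or -0.28 (adjusted p = 0.0208) under median-ratio scaling. EIF2S1, whose product is the subunit phosphorylated in the integrated stress response, changed by -0.14 (adjusted p = 0.252) against control ES and by -0.30 (adjusted p = 0.0206) against FDX1-OE DMSO. That fall missed the threshold without either FDX1-OE DMSO library (adjusted p of 0.0947 and 0.0694) and was -0.17 without FDX1-OE ES replicate 2. EIF5, which triggers GTP hydrolysis by eIF2, had 49.6 and 39.7 FPKM in FDX1-OE ES, 41.9 and 41.7 FPKM in control ES, 47.1 and 46.8 FPKM in FDX1-OE DMSO and 47.7 and 46.3 FPKM in control DMSO, so that FDX1-OE ES overlapped with every other group (0.09, adjusted p = 0.496, and 0.24, adjusted p = 0.00892, without FDX1-OE ES replicate 2).

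EIF1, the gatekeeper of start codon selection, is described because it rose with ES in both genotypes, a choice made after its values were seen. It had 184 and 208 FPKM in FDX1-OE ES, 198 and 198 FPKM in control ES, 142 and 143 FPKM in FDX1-OE DMSO and 165 and 155 FPKM in control DMSO. All ES libraries lay above all DMSO libraries, and the ES groups overlapped with each other. It rose by 0.45 (SE 0.07, adjusted p = 0.000763) in FDX1-OE ES against FDX1-OE DMSO and by 0.31 (SE 0.07, adjusted p = 0.0375) in control ES against control DMSO. Under median-ratio scaling the rise in FDX1-OE cells was 0.17 (adjusted p = 0.0783), and the rise in control cells was lost without any 1 of the 6 libraries outside FDX1-OE ES (adjusted p between 0.0766 and 0.207). Between the ES groups EIF1 gave -0.01 (adjusted p = 0.885), which turned to 0.19 (adjusted p = 0.0455) under quantile normalisation. Its partner EIF1AX, not called against control ES (-0.21, adjusted p = 0.109), fell against FDX1-OE DMSO (-0.36, adjusted p = 0.0114). Without FDX1-OE DMSO replicate 2 that fall was -0.32 (adjusted p = 0.0722), and without FDX1-OE ES replicate 2 it was -0.22.

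The complex eIF2B, which reloads eIF2 with GTP, had 0 of 5 subunit genes called in FDX1-OE ES against control ES, with 2 at an unadjusted p below 0.05 and all 5 below 0, between -0.25 and -0.03. That count depended on the scaling, with 5 of 5 lower under median-ratio scaling and 4 under quantile normalisation. Against FDX1-OE DMSO 2 of 5 fell (40.0%), EIF2B2 (-0.53, adjusted p = 0.00177) and EIF2B3 (-0.25, adjusted p = 0.0175). Of all genes tested 10.4% fell against control ES and 13.7% against FDX1-OE DMSO, and of abundant genes 30.1% and 35.6%. The fall of EIF2B3 was lost without either FDX1-OE DMSO library (adjusted p of 0.105 and 0.0544). EIF2B1 had 44.5 and 43.8 FPKM in FDX1-OE ES, 46.9 and 43.6 FPKM in control ES, 43.4 and 44.1 FPKM in FDX1-OE DMSO and 47.0 and 44.8 FPKM in control DMSO. Its log2 fold change against FDX1-OE DMSO was 0.01 (adjusted p = 0.873), which turned to -0.27 (adjusted p = 0.00932) under median-ratio scaling. The catalytic subunit gene EIF2B5 gave -0.12 (adjusted p = 0.157) against control ES and -0.07 (adjusted p = 0.37) against FDX1-OE DMSO.

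Of the 13 genes of eIF3, the scaffold on the small subunit, 4 fell and 0 rose in FDX1-OE ES against control ES, with a median of -0.19 and 12 of 13 below 0. The share that fell, 30.8%, lay at that of abundant genes (30.1%), and the count was 10 under median-ratio scaling, 7 without FDX1-OE ES replicate 1 and 2 with equal FPKM totals. Against FDX1-OE DMSO 8 fell (61.5%, against 35.6% of abundant genes) and all 13 lay below 0, with a median of -0.32. The summed level was 1387 and 1346 FPKM in FDX1-OE ES, 1652 and 1620.2 FPKM in control ES, 1771 and 1838 FPKM in FDX1-OE DMSO and 1843 and 1797 FPKM in control DMSO.

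The size of the fall differed between subunits of the complex. EIF3K, a peripheral subunit, had 131 and 145 FPKM in FDX1-OE ES, 234 and 207 FPKM in control ES, 260.5 and 257 FPKM in FDX1-OE DMSO and 260.2 and 265 FPKM in control DMSO. The FDX1-OE ES libraries lay far below all others, and control ES lay below the DMSO groups. It fell by 0.67 (SE 0.08, adjusted p = 0.000696) in FDX1-OE ES against control ES and by 0.91 (SE 0.08, adjusted p = 5.54e-05) against FDX1-OE DMSO, and in control ES against control DMSO it was -0.25 (adjusted p = 0.0778). EIF3L, whose product pairs with that of EIF3K, had replicates too far apart to follow it. It had 133 and 156 FPKM in FDX1-OE ES, 139.6 and 182 FPKM in control ES, 147 and 189 FPKM in FDX1-OE DMSO and 187 and 136 FPKM in control DMSO, and its groups overlapped.

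EIF3B, which anchors the module of EIF3B, EIF3G and EIF3I, had 176 and 171 FPKM in FDX1-OE ES, 224 and 212 FPKM in control ES, 239 and 251 FPKM in FDX1-OE DMSO and 264 and 267 FPKM in control DMSO. It fell by 0.33 (SE 0.06, adjusted p = 0.00347) in FDX1-OE ES against control ES, by 0.50 (SE 0.06, adjusted p = 0.000195) against FDX1-OE DMSO and by 0.28 (SE 0.06, adjusted p = 0.0272) in control ES against control DMSO. The last of these was lost without any 1 of the 6 libraries outside FDX1-OE ES (adjusted p between 0.0594 and 0.206), and under quantile normalisation the difference from control ES was -0.15 (adjusted p = 0.0906). EIF3G, an RNA-binding subunit, had 113 and 121 FPKM in FDX1-OE ES, 144 and 144 FPKM in control ES, 157 and 166 FPKM in FDX1-OE DMSO and 162 and 164 FPKM in control DMSO. Its groups did not overlap between FDX1-OE ES and any other, and it fell by 0.30 (SE 0.06, adjusted p = 0.00603) against control ES and by 0.46 (SE 0.06, adjusted p = 0.000355) against FDX1-OE DMSO. With equal FPKM totals its fall against control ES was -0.16 (adjusted p = 0.0556). EIF3I, a propeller-shaped subunit, had 158 and 174 FPKM in FDX1-OE ES, 208 and 186 FPKM in control ES, 203 and 218 FPKM in FDX1-OE DMSO and 207 and 207 FPKM in control DMSO. It changed by -0.24 (SE 0.08, adjusted p = 0.0353) against control ES, a call lost under 11 of 17 alternatives, among them without control ES replicate 1 (-0.16, adjusted p = 0.223), without FDX1-OE ES replicate 1 (-0.17, adjusted p = 0.105) and without any 1 DMSO library (adjusted p between 0.0533 and 0.0601).

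EIF3J, a loosely bound subunit, was the only subunit gene not below 0 against control ES. It had 51.4 and 43.7 FPKM in FDX1-OE ES, 45.9 and 48.5 FPKM in control ES, 51.6 and 55.6 FPKM in FDX1-OE DMSO and 52.7 and 51.4 FPKM in control DMSO. Its FDX1-OE ES libraries lay on either side of control ES, a difference of 0.01 (adjusted p = 0.958). Against FDX1-OE DMSO it was -0.17 (adjusted p = 0.109), below 0 like the other subunit genes. Of the large core subunits EIF3A changed by -0.15 (adjusted p = 0.112) against control ES and fell by 0.32 (adjusted p = 0.00375) against FDX1-OE DMSO. EIF3C had 8.10 and 8.01 FPKM in FDX1-OE ES and 8.75 to 9.33 FPKM in the other groups. It was not called against control ES (-0.19, adjusted p = 0.0714) or FDX1-OE DMSO (-0.14, adjusted p = 0.119). Against control ES it passed the test below 0 under median-ratio scaling (-0.34, adjusted p = 0.00879), quantile normalisation (-0.40, adjusted p = 0.00599) and without a filter (adjusted p = 0.0434). Against FDX1-OE DMSO it did so under both scalings. Its near-identical copy EIF3CL stood at 2.02 to 3.28 FPKM. How reads shared by these copies were counted is not given in the sources used here, so both levels are uncertain. EIF3D (-0.28), EIF3M (-0.43) and EIF3H (-0.21) fell against FDX1-OE DMSO (adjusted p of 0.00452, 0.0065 and 0.0252), and EIF3E (-0.33, adjusted p = 0.0568) and EIF3F (-0.13, adjusted p = 0.44) did not pass the test. EIF3H missed the threshold without either FDX1-OE DMSO library (adjusted p of 0.0891 and 0.114) and was -0.12 without FDX1-OE ES replicate 2, where EIF3M was -0.27.

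The 9 genes of mRNA recruitment split. In FDX1-OE ES against control ES 1 rose (11.1%) and 2 fell (22.2%), against 16.0% and 30.1% of abundant genes, with a median of -0.05. Against FDX1-OE DMSO 2 rose (22.2%) and 3 fell (33.3%), against 26.9% and 35.6% of abundant genes, with a median of -0.07. Under quantile normalisation the counts were 2 higher and 0 lower, and 3 and 0. EIF4G2, which codes for a relative of the eIF4G scaffold that lacks the part binding eIF4E, had 327 and 318 FPKM in FDX1-OE ES, 250.02 and 257 FPKM in control ES, 223 and 217 FPKM in FDX1-OE DMSO and 231 and 228 FPKM in control DMSO. Its groups followed each other without overlap, with both ES groups above both DMSO groups. It rose by 0.35 (SE 0.05, adjusted p = 0.00207) against control ES and by 0.55 (SE 0.05, adjusted p = 9.03e-05) against FDX1-OE DMSO, and in control ES against control DMSO it was 0.14 (adjusted p = 0.124). EIF4G1, the scaffold that does bind eIF4E, moved the other way, with 159 and 155 FPKM in FDX1-OE ES, 179 and 168 FPKM in control ES, 198 and 191 FPKM in FDX1-OE DMSO and 205 and 206 FPKM in control DMSO. It was -0.14 (adjusted p = 0.0736) against control ES, and it fell by 0.31 (SE 0.06, adjusted p = 0.00194) against FDX1-OE DMSO and by 0.24 (SE 0.06, adjusted p = 0.0397) in control ES against control DMSO. That fall in control cells was lost without any 1 of the 6 libraries outside FDX1-OE ES (adjusted p between 0.0824 and 0.26). The ratio of EIF4G2 to EIF4G1 in FPKM was 2.06 and 2.05 in FDX1-OE ES, 1.40 and 1.53 in control ES, 1.12 and 1.13 in FDX1-OE DMSO and 1.13 and 1.11 in control DMSO.

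EIF4H and EIF4B, which stimulate the helicase eIF4A, both fell. EIF4H had 154 and 154 FPKM in FDX1-OE ES, 184 and 187 FPKM in control ES, 191 and 191 FPKM in FDX1-OE DMSO and 193 and 197 FPKM in control DMSO, and it fell by 0.27 (SE 0.05, adjusted p = 0.00472) in FDX1-OE ES against control ES. Under quantile normalisation and with equal FPKM totals that call was lost, with a highest adjusted p of 0.191. EIF4B had 182 and 134 FPKM in FDX1-OE ES, 203 and 199 FPKM in control ES, 220.4 and 244 FPKM in FDX1-OE DMSO and 253 and 242 FPKM in control DMSO. Its FDX1-OE ES libraries were the lowest and differed widely from each other. The change was -0.36 (SE 0.13, adjusted p = 0.048) against control ES, lost under 14 of 17 alternatives. It was -0.14 (adjusted p = 0.12) without FDX1-OE ES replicate 2 and -0.58 (adjusted p = 0.0011) without FDX1-OE ES replicate 1, and without any 1 library of the other groups adjusted p lay between 0.0651 and 0.169. Against FDX1-OE DMSO EIF4B fell by 0.57 (SE 0.13, adjusted p = 0.00487), and the value was -0.35 without FDX1-OE ES replicate 2.

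The genes for the helicase itself were not called. EIF4A1 had 309.6 and 282 FPKM in FDX1-OE ES, 396 and 340.2 FPKM in control ES, 456 and 376 FPKM in FDX1-OE DMSO and 255 and 474 FPKM in control DMSO. The control DMSO libraries lay on either side of all others. Its exons are shared with the read-through row SENP3-EIF4A1, which had 15.6 and 12.9 FPKM in FDX1-OE ES, 46.3 and 64.5 FPKM in control ES, 62.6 and 101 FPKM in FDX1-OE DMSO and 164 and 44.8 FPKM in control DMSO. In control DMSO the read-through row was high where EIF4A1 was low, so the level of EIF4A1 is uncertain. Against FDX1-OE DMSO EIF4A1 passed the test below 0 under median-ratio scaling (-0.77, adjusted p = 0.0288), in a fit of only the groups compared (-0.49, adjusted p = 0.0135) and without either control DMSO library (-0.49, adjusted p = 0.00851 in each). EIF4A2 ran from 137 to 168 FPKM over all libraries.

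For the cap-binding protein and its inhibitor only the mRNA levels, of EIF4E and EIF4EBP1, were measured, and cap binding itself was not. EIF4E had 13.4 and 18.5 FPKM in FDX1-OE ES, 15.9 and 14.4 FPKM in control ES, 18.5 and 14.8 FPKM in FDX1-OE DMSO and 17.9 and 14.1 FPKM in control DMSO. All groups overlapped, and the difference between FDX1-OE ES and control ES was 0.05 (SE 0.17, adjusted p = 0.816). EIF4EBP1, which holds eIF4E away from eIF4G unless mTOR phosphorylates it, had 93.6 and 112 FPKM in FDX1-OE ES, 93.5 and 97.0 FPKM in control ES, 78.8 and 81.5 FPKM in FDX1-OE DMSO and 80.9 and 76.6 FPKM in control DMSO. All ES libraries lay above all DMSO libraries. It rose by 0.35 (SE 0.08, adjusted p = 0.00752) in FDX1-OE ES against FDX1-OE DMSO, and in control ES against control DMSO it was 0.27 (adjusted p = 0.0849). The rise in FDX1-OE cells was 0.22 without FDX1-OE ES replicate 2 and was lost under median-ratio scaling (0.06, adjusted p = 0.559). PABPC1, the poly(A)-binding protein gene, had 1259.7 and 1073 FPKM in FDX1-OE ES, 1156 and 1107 FPKM in control ES, 1219.7 and 1221 FPKM in FDX1-OE DMSO and 1219 and 1234 FPKM in control DMSO. It was not called, with 0.04 (adjusted p = 0.709) in FDX1-OE ES against control ES and -0.07 (adjusted p = 0.455) against FDX1-OE DMSO, but its direction depended on the scaling and on the FDX1-OE ES libraries. Against control ES it was 0.32 (adjusted p = 0.0143) under quantile normalisation and 0.15 (adjusted p = 0.0229) without FDX1-OE ES replicate 2. Against FDX1-OE DMSO it was 0.24 (adjusted p = 0.0258) under quantile normalisation, -0.36 (adjusted p = 0.00599) under median-ratio scaling and -0.19 (adjusted p = 0.00735) without FDX1-OE ES replicate 1.

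**Figure D3:**
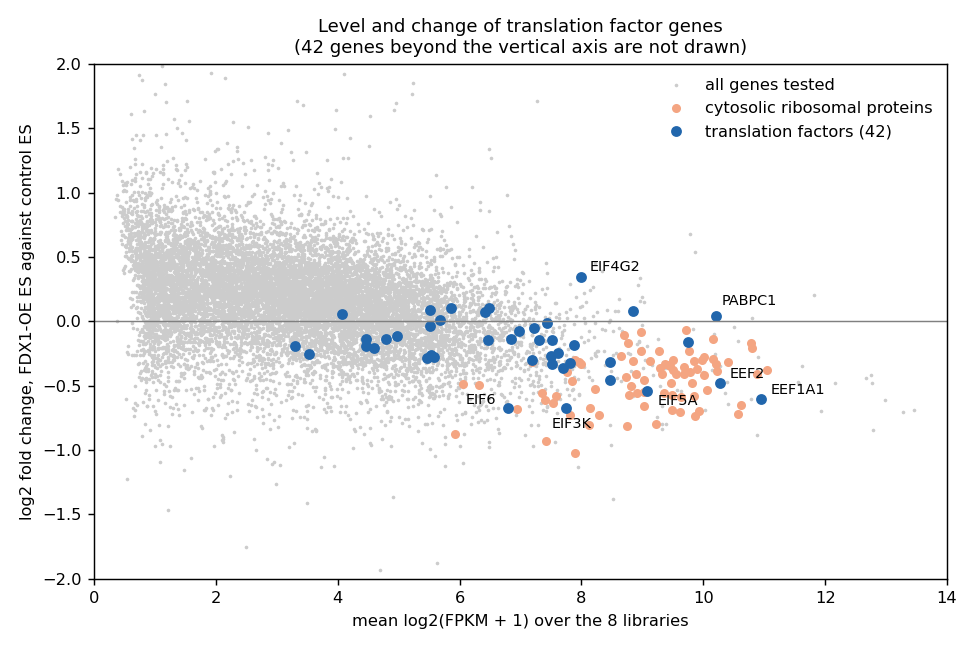
Log2 fold change in FDX1-OE ES against control ES on the vertical axis by mean log2(FPKM + 1) over the 8 libraries on the horizontal axis, for all genes tested (grey), 79 ribosomal protein genes (orange) and the 42 translation factors (blue). Grey points drift from above 0 at low levels to below 0 at high levels, the ribosomal protein genes lie at a median of -0.41, and the translation factors at a median of -0.17, with EIF4G2 at 0.35 and PABPC1 at 0.04. The 42 genes beyond the axis are not drawn.

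Whether ES acted differently in the FDX1-OE and the control cells was tested with the interaction term, the log2 fold change with ES in FDX1-OE cells less that in control cells. It was called for 1 of the 42 genes above 0 and for 7 below 0 (16.7%), or for 3 and 4 under quantile normalisation and 0 and 14 under median-ratio scaling. Without a filter it was 1 and 2, without FDX1-OE ES replicate 1 it was 2 and 17, and without FDX1-OE ES replicate 2 it was 2 and 12. The background was 13.9% above and 5.06% below 0 over all genes, and 8.36% above and 16.7% below over abundant genes. Above 0 was EIF4G2 (0.41, adjusted p = 0.0113). Below 0 were EIF3K (-0.65, adjusted p = 0.00841), EIF6 (-0.64, adjusted p = 0.0192), EEF1A1 (-0.63, adjusted p = 0.0111), EIF5A (-0.50, adjusted p = 0.0056), EEF2 (-0.48, adjusted p = 0.00838), EEF1B2 (-0.48, adjusted p = 0.0253) and EIF3G (-0.29, adjusted p = 0.0482). Of these EIF3K alone was called under all 16 alternatives. Under quantile normalisation the calls of EIF5A (adjusted p = 0.0757), EEF1B2 (adjusted p = 0.0657), EIF3G (adjusted p = 0.139) and EEF2 (-0.14, adjusted p = 0.211) were lost. Without a filter those of EEF1A1, EEF2, EIF6, EEF1B2 and EIF3G were lost (adjusted p between 0.0517 and 0.0936). With equal FPKM totals those of EEF1B2 and EIF3G were lost (adjusted p of 0.0521 and 0.206). The call of EIF4G2 was lost under median-ratio scaling (0.23, adjusted p = 0.0654). Leaving out 1 library ended the call of EEF2 (FDX1-OE DMSO replicate 2, adjusted p = 0.0512), of EEF1A1 (control DMSO replicate 1, FDX1-OE DMSO replicate 2 or control ES replicate 1, adjusted p between 0.052 and 0.0539) and of EIF4G2 (either control DMSO library, FDX1-OE DMSO replicate 2 or control ES replicate 1, adjusted p between 0.0502 and 0.0609). For EIF6, EEF1B2 and EIF3G the loss of any 1 of the 6 libraries outside FDX1-OE ES ended it, at adjusted p of up to 0.0762, 0.0979 and 0.174. Of the elongation factors 4 of 7 were among them, and of eIF2B 0 of 5. EIF1, EIF3B and EIF4G1, which changed with ES in control cells too, had interactions of 0.15, -0.22 and -0.06 (adjusted p of 0.306, 0.0935 and 0.589).

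Translation factor genes with a start tract had lower medians than those without, which is given here as a description. Against FDX1-OE DMSO the 11 genes with a tract had 7 lower and 1 higher, TPT1, and a median of -0.43. The 22 genes without a tract had 12 lower and 2 higher and a median of -0.27. In FDX1-OE ES against control ES the medians were -0.28 with a tract and -0.17 without, with 5 of 11 and 7 of 22 lower. Of abundant genes 35.6% fell against FDX1-OE DMSO and 30.1% against control ES, and of all genes tested 13.7% and 10.4%. In control ES against control DMSO the medians were -0.18 with a tract and -0.07 without. Genes of both kinds were found at either end. EIF2S3 (0.01) and EIF4A2 (-0.03), each with a tract, were not called with ES in FDX1-OE cells, although both fell under median-ratio scaling (-0.28 and -0.32, adjusted p of 0.0208 and 0.0162), and EIF6 (-0.85) and EIF5A (-0.66), with none at any annotated start, were among the 5 largest falls. Ribosomal protein genes fell whether or not the search found a tract, with medians of -0.53 over 47 genes with a tract and -0.47 over 16 genes without. In control ES against control DMSO their medians had the other order, -0.02 with a tract and -0.03 without.

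**Figure D4:**
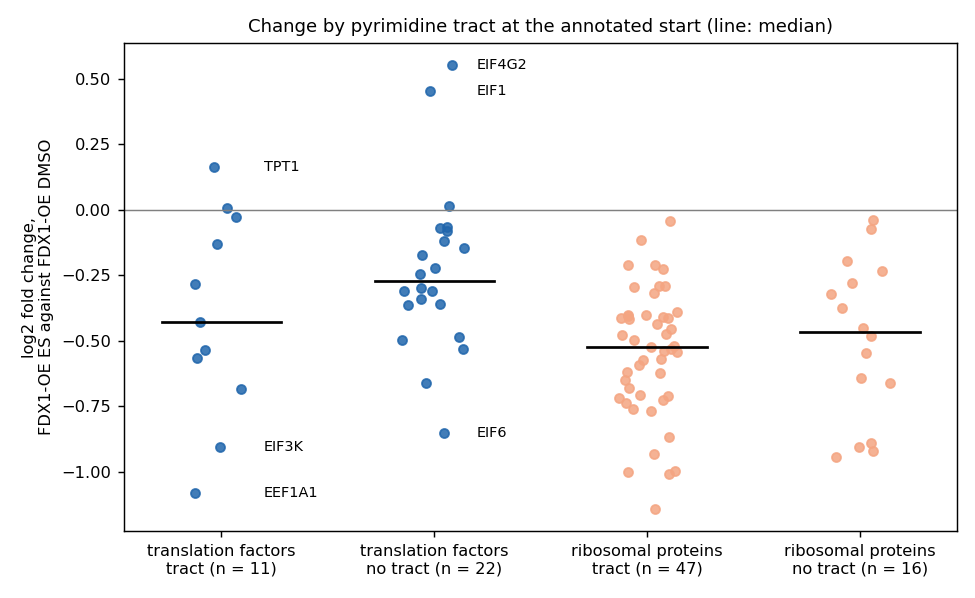
Log2 fold change in FDX1-OE ES against FDX1-OE DMSO on the vertical axis for translation factors and ribosomal protein genes, each with and without a C followed by at least 4 bases that are C or T at an annotated RefSeq start. Each point is a gene and each line a median, -0.43 and -0.27 for the 11 and 22 translation factors and -0.53 and -0.47 for the 47 and 16 ribosomal protein genes.

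Beyond the 42 genes, other translation genes were listed by role. Of 24 tested regulators of initiation and elongation 8 rose and 2 fell in FDX1-OE ES against control ES, with a median of 0.14. The shares, 33.3% and 8.33%, lay near those of all genes tested. EIF2AK2, the kinase PKR that phosphorylates eIF2 when it meets double-stranded RNA, had 29.2 and 28.5 FPKM in FDX1-OE ES, 8.003 and 8.63 FPKM in control ES, 6.20 and 5.97 FPKM in FDX1-OE DMSO and 5.82 and 6.07 FPKM in control DMSO. The FDX1-OE ES libraries were over 3 times as high as any other, and the log2 fold change against control ES was 1.68 (SE 0.08, adjusted p = 2.15e-05). PPP1R15B, a subunit of the phosphatase that reverses this mark, rose too, with 23.0 and 21.5 FPKM in FDX1-OE ES and 14.6 and 16.0 FPKM in control ES (0.51, adjusted p = 0.00267). PDCD4, an inhibitor of eIF4A, had 19.3 and 17.7 FPKM in FDX1-OE ES and 10.97 and 10.7 FPKM in control ES (0.72, adjusted p = 0.00117). EIF4EBP2, a relative of EIF4EBP1, had 42.7 and 39.6 FPKM in FDX1-OE ES and 27.3 and 29.5 FPKM in control ES (0.52, adjusted p = 0.00131). None of these 4 genes overlapped between FDX1-OE ES and the other groups, but they were picked by the smallest p against control ES. Their lack of overlap with control ES follows largely from that choice and is not further evidence. The share of all genes without overlap was not counted.

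Of 19 tested paralogues and minor factors 6 rose (31.6%) and 3 fell (15.8%), against 31.1% and 10.4% of all genes tested, so the shares lay near the background. EIF1B, a copy of EIF1, had 38.6 and 41.2 FPKM in FDX1-OE ES and 26.8 and 29.2 FPKM in control ES (0.50, adjusted p = 0.00179), where EIF1 itself was not called. The helicase gene DDX3X had 135.5 and 125.5 FPKM in FDX1-OE ES and 93.7 and 100.3 FPKM in control ES (0.42, adjusted p = 0.00309). EIF4E2, a cap-binding relative of EIF4E that serves in repression, fell, with 24.8 and 24.9 FPKM in FDX1-OE ES and 33.7 and 33.4 FPKM in control ES (-0.42, adjusted p = 0.00159). EEF1E1, whose product sits in the multi-tRNA synthetase complex, had 29.1 and 24.0 FPKM in FDX1-OE ES and 41.6 and 40.8 FPKM in control ES (-0.62, adjusted p = 0.0016).

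Genes of termination and recycling gave 0 calls of 6 in limma in that comparison, with 2 at an unadjusted p below 0.05. The release factor genes ETF1 (-0.16, adjusted p = 0.178), GSPT1 (-0.23, adjusted p = 0.0581) and GSPT2 (0.27, adjusted p = 0.149) and the rescue factor gene HBS1L (0.28, adjusted p = 0.0973) had the smallest p. Of 12 tested enzymes that modify the factors 2 rose (16.7%) and 5 fell (41.7%), with a median of -0.26, against 31.1% and 10.4% of all genes tested and 16.0% and 30.1% of abundant genes. DPH1 (-0.32, adjusted p = 0.0128) and DPH2 (-0.49, adjusted p = 0.00198), which begin the diphthamide modification of eEF2, fell, and DNAJC24 (0.52, adjusted p = 0.00881), which acts with them, rose. The eEF1A methyltransferase gene EEF1AKMT4 fell by 0.70 (adjusted p = 0.00218). The calls of DPH1 and DNAJC24 were lost when control libraries were left out, DPH1 without control ES replicate 1 or 2 (adjusted p of 0.0532 and 0.0711) and DNAJC24 without control ES replicate 1 (adjusted p = 0.057).

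**Figure D5:**
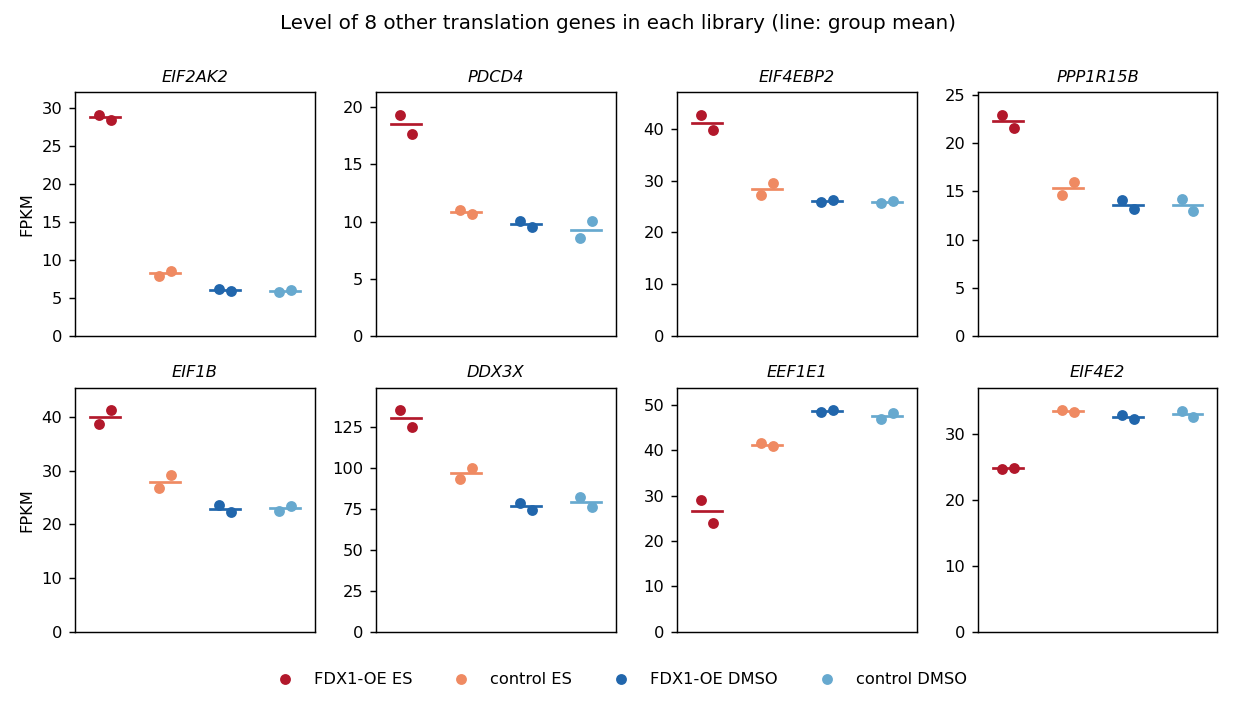
Level in FPKM on the vertical axis of 8 translation genes outside the 42 in each library, drawn as points with a line at the group mean, with FDX1-OE ES, control ES, FDX1-OE DMSO and control DMSO side by side. EIF2AK2, PDCD4, EIF4EBP2, PPP1R15B, EIF1B and DDX3X were highest in FDX1-OE ES, with EIF2AK2 at 29.2 and 28.5 FPKM there, and EEF1E1 and EIF4E2 were lowest there.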

How the data were processed

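RNA sequencing libraries of WSU-DLCL2 cells were compared, 8 in 4 groups of 2, grouped by the source names in the labels. The authors deposited 1 table per library with a value per gene symbol. The columns carry no unit, and the deposited values were taken as FPKM from their form and range. HISAT2, HTSeq, hg19 and R 3.2.0 stand in the submitters' processing notes without a role. The tool that computed the FPKM values, the strand setting and the read depth are not given in the sources used here. The commonest low value per library lay between 0.138 and 0.164 FPKM, which places relative depths close together, and no counting interval is given.

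The 12063 genes that reached 1 FPKM in 2 or more libraries were fitted with limma 3.58.1 in R 4.3.3 on log2(FPKM + 1), with 4 group means over all 8 libraries, an intensity trend, two-sided moderated tests and Benjamini-Hochberg adjustment over all genes tested. The pseudocount of 1 understates changes of low genes. A gene was called at an adjusted p below 0.05. No set test was run. The 42 genes and all other lists were chosen with earlier results of these data known. Values in every library were given for genes called in FDX1-OE ES against control ES, in control ES against control DMSO or in the interaction and among the 4 smallest p of their role group, and for genes whose direction differed from most of their group. EIF1, EIF2B1, EIF3L and EIF4A1 fell outside this rule and were shown after their values were seen. Of each other list the 4 genes with the smallest p were named. In all, 17 alternatives were run, on the filter, pseudocount, scaling, library weights, samples fitted, replicate number and each library left out. Start sequences were taken from RefSeq and overlaps between genes from GENCODE 29.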

Additional observations from a re-analysis of the deposited data

Results flagged for a closer look

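For 17 of the genes named above the change with ES differed between FDX1-OE and control cells by a test of the difference itself. This was the interaction term in limma with Benjamini-Hochberg adjustment over all genes. The test called 13.9% of all genes tested above 0 and 5.06% below 0, and 8.36% and 16.7% of abundant genes. Values are the log2 fold change with ES in FDX1-OE cells less that in control cells. Among the translation factors these were EIF3K at -0.65 (adjusted p = 0.00841), EIF6 at -0.64 (adjusted p = 0.0192), EEF1A1 at -0.63 (adjusted p = 0.0111), EIF5A at -0.50 (adjusted p = 0.0056), EEF2 at -0.48 (adjusted p = 0.00838), EEF1B2 at -0.48 (adjusted p = 0.0253), EIF3G at -0.29 (adjusted p = 0.0482) and EIF4G2 at 0.41 (adjusted p = 0.0113). Of the 24 regulators tested, 6 were called above 0 and 1 below 0, against 13.9% and 5.06% of all genes tested. Only the 4 with the smallest p in FDX1-OE ES against control ES are named. They were EIF2AK2 at 1.65 (adjusted p = 0.000453), PDCD4 at 0.65 (adjusted p = 0.0154), EIF4EBP2 at 0.51 (adjusted p = 0.0132) and PPP1R15B at 0.51 (adjusted p = 0.0224). The paralogues and minor factors were EIF1B at 0.50 (adjusted p = 0.0157), DDX3X at 0.48 (adjusted p = 0.0179), EIF4E2 at -0.40 (adjusted p = 0.017) and EEF1E1 at -0.65 (adjusted p = 0.0129), and the modifying enzyme was EEF1AKMT4 at -0.68 (adjusted p = 0.021). Of these 9 genes outside the 42, EIF2AK2 alone was called under every alternative. Leaving out 1 library ended the call of EIF4E2 for any of the 6 libraries outside FDX1-OE ES (adjusted p up to 0.0754). It ended those of EIF1B, EIF4EBP2 and PPP1R15B for any of these but control ES replicate 2 (up to 0.0724, 0.0598 and 0.0912), and that of PDCD4 for any but control DMSO replicate 1 (up to 0.0657). For DDX3X, EEF1E1 and EEF1AKMT4 it was so for either FDX1-OE DMSO library, control ES replicate 1 and 1 control DMSO library, replicate 1 for DDX3X and EEF1E1 and replicate 2 for EEF1AKMT4 (up to 0.0778, 0.0562 and 0.0793). Without a filter the calls of DDX3X, EEF1E1, EEF1AKMT4 and PPP1R15B were lost (adjusted p between 0.0506 and 0.0695), under median-ratio scaling those of DDX3X, EIF1B and PPP1R15B (0.0693, 0.0549 and 0.073), and under quantile normalisation that of PPP1R15B (0.0616). With 2 libraries a group no group was tested for outlying libraries.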

How the results depend on the processing

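The counts of the 42 genes called depended on scaling and on the estimate of spread. In FDX1-OE ES against control ES (1 higher, 14 lower) median-ratio scaling gave 28 lower, quantile normalisation 5 higher, equal FPKM totals 4 higher and 7 lower, and a fit of only the groups compared 9 lower. In FDX1-OE ES against FDX1-OE DMSO (4 higher, 22 lower) median-ratio scaling gave 1 higher and 37 lower. In control ES against control DMSO (1 higher, 3 lower) no filter gave 0 and 0, median-ratio scaling 0 and 9, quantile normalisation 0 lower, array weights 3 and 12, and only the groups compared 2 and 10. The interaction (1 above 0, 7 below) gave 2 below with no filter, 0 and 14 under median-ratio scaling and 3 and 4 under quantile normalisation. Leaving out each library in turn gave 1 to 5 higher and 10 to 21 lower in FDX1-OE ES against control ES, 3 to 5 and 16 to 27 against FDX1-OE DMSO, 0 to 3 and 0 to 13 in control ES against control DMSO, and 0 to 2 and 2 to 17 for the interaction. The causes were not tested. Counts in FDX1-OE DMSO against control DMSO were 0 in each of these.

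Median-ratio scaling moved the all-gene median to 0.00 and the median of the 42 genes to -0.34 against control ES and -0.55 against FDX1-OE DMSO; it was -0.12 and -0.21 under quantile normalisation and -0.03 and -0.12 with equal totals, below 0 under each. Signs turned under quantile normalisation for EEF1G (0.19) and EIF1 (0.19) against control ES and for EEF1G (0.16) and PABPC1 (0.24) against FDX1-OE DMSO, and under median-ratio scaling for EIF2B1 (-0.27), EIF2S3 (-0.28) and TPT1 (-0.13) against FDX1-OE DMSO. Called under every alternative were EIF4G2, EIF3K, EIF5A, EIF6, EEF1A1 and EEF1B2 against control ES, and those 6 with EIF2B2, EIF3A, EIF3B, EIF3G, EIF3M and EEF2 against FDX1-OE DMSO. Same-numbered libraries did not deviate together (correlations between -0.05 and 0.08 over 6 pairs of groups), so the replicate number was not taken as a pairing. The replicate block gave 1 higher and 13 lower against control ES, 4 and 22 against FDX1-OE DMSO, 0 and 2 in control ES against control DMSO, 0 and 0 in FDX1-OE DMSO against control DMSO, and 1 and 6 for the interaction. Depth is unknown, 2 libraries a group limit every estimate, and the FDX1-OE ES libraries vary most.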

Other observations

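Ratios of FPKM between genes that act together were taken within each library, with no test, and they describe mRNA levels only. EEF1A1 over EEF1G was 1.74 and 1.42 in FDX1-OE ES, 2.24 and 2.05 in control ES, 2.84 and 2.88 in FDX1-OE DMSO and 2.87 and 2.93 in control DMSO. The ES groups lay below the DMSO groups, lowest in FDX1-OE ES. EIF4EBP1 over EIF4E was 6.99 and 6.05 in FDX1-OE ES, 5.89 and 6.74 in control ES, 4.25 and 5.50 in FDX1-OE DMSO and 4.52 and 5.44 in control DMSO, higher in every ES library than in any DMSO library. EIF4E was low and varied within groups, with 13.4 and 18.5 FPKM in FDX1-OE ES. EIF4A1 over EIF4A2 was 1.515 and 3.38 in control DMSO, on either side of all other libraries.

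A search of both strands for CACGTG, the core bound by MYC and its relatives, in 300 bases around the annotated RefSeq starts found it in 7 of 33 translation factor genes (21.2%), against 8.77% of all genes with an entry and 15.6% of abundant genes.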
